A study of Mus musculus with 198 samples.

Results

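GABA-A receptors are pentameric chloride channels that are opened by GABA, the main inhibitory transmitter of the forebrain. Receptors of alpha and beta subunits with a gamma subunit gather mainly at synapses, whereas receptors in which the delta subunit takes the place of gamma lie outside synapses and carry a slow, tonic inhibition. In the forebrain the delta subunit is known to assemble with alpha4 and a beta subunit, among other sites in dentate granule cells and in the medium spiny neurons of the striatum. The subunits described here are alpha3 (Gabra3), alpha4 (Gabra4), alpha5 (Gabra5), beta1 (Gabrb1), beta2 (Gabrb2), delta (Gabrd) and gamma1 (Gabrg1). They were taken by symbol from the array annotation as the GABA-A subunits of a fixed list other than Gabra2, which gave 7 genes with 9 probes, of 16593 annotated genes and 25697 probes on the array.

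RNA came from whole hippocampus and whole striatum of male mice of the Hybrid Mouse Diversity Panel, a set of inbred strains, and was hybridized to Illumina MouseRef-8 arrays. The panel joined classical inbred strains with the recombinant inbred sets BXD (from B6 and DBA), AXB/BXA (from AJ and B6) and BXH (from B6 and C3H), and no strain carried a treatment or an engineered allele in the labels. Hippocampus was measured in 99 strains on 100 arrays (30 BXD, 28 AXB/BXA, 11 BXH and 30 other inbred strains) and striatum in 97 strains on 98 arrays (30, 28, 10 and 29), and 96 strains had an array of each tissue. Age is not given in the labels, and the mice whose tissue was taken belonged to a study of conditioned fear. Each strain had 1 array per tissue, except B6Cc3, whose 2 arrays were averaged, so that every SD below is the spread between strains and no error within a strain can be given. Strain names are printed without the substrain suffix.

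A probe was called detected on an array at a detection p under 0.01, and between 22.4% and 49.5% of probes were detected per hippocampus array and between 35.2% and 46.4% per striatum array. The arrays of AXB19b in hippocampus and of SM, NZW and KK in striatum stood apart from the rest of their tissue, and values without these 4 arrays stand beside the results that they move. These arrays were listed by name and not by a numeric threshold, so the choice may not be independent of the results below. All 7 medium spiny neuron markers tested, among them the dopamine receptors Drd1 and Drd2, were at least 2-fold higher in striatum. Of 8 hippocampal neuron markers, 6 were at least 2-fold higher in hippocampus. In striatum the mean of the medium spiny neuron markers was lowest in KK, at 8.93 against a median of 12.7. That value lies within the hippocampal range of the same mean, 8.03 (BTBR) to 9.48 (C3H). The KK array was kept in the values given over all strains. Markers of cortical-type glutamatergic neurons varied between the striatum arrays, their mean level ranging from 6.84 (BXD11) through a median of 9.21 to 12.06 (KK) on the log2 scale, against 9.22 (AXB19b) to 11.43 (C3H) in hippocampus. In tissue RNA, fewer cells of a type and less RNA per cell cannot be told apart. The hippocampus and striatum arrays were also processed as separate tables, and this difference cannot be told apart from that of the tissues.

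Of the 7 genes, 5 gave a signal above background. Levels are log2 of the normalized signal, and a level of 1 probe says nothing about that of another. Gabra4 and Gabra5 were detected on 0 of 100 hippocampus and 0 of 98 striatum arrays, so that no level, fold change or correlation is given for either. The probes of Gabra3 (99 of 100 arrays in hippocampus, 96 of 98 in striatum), Gabrb1 (99 and 97) and Gabrd (100 and 98 for probe 1, 99 and 98 for probe 2) were detected nearly throughout. Of the Gabrb2 probes, probe 1 was detected on 99 hippocampus and 96 striatum arrays, and probe 2 on 35 and 96. The Gabrg1 probe was close to background, with 35 hippocampus and 61 striatum arrays. The probe with the higher mean signal is called probe 1. A further 9 GABA-A subunit genes with a probe were detected on no array.

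**Figure D1:**
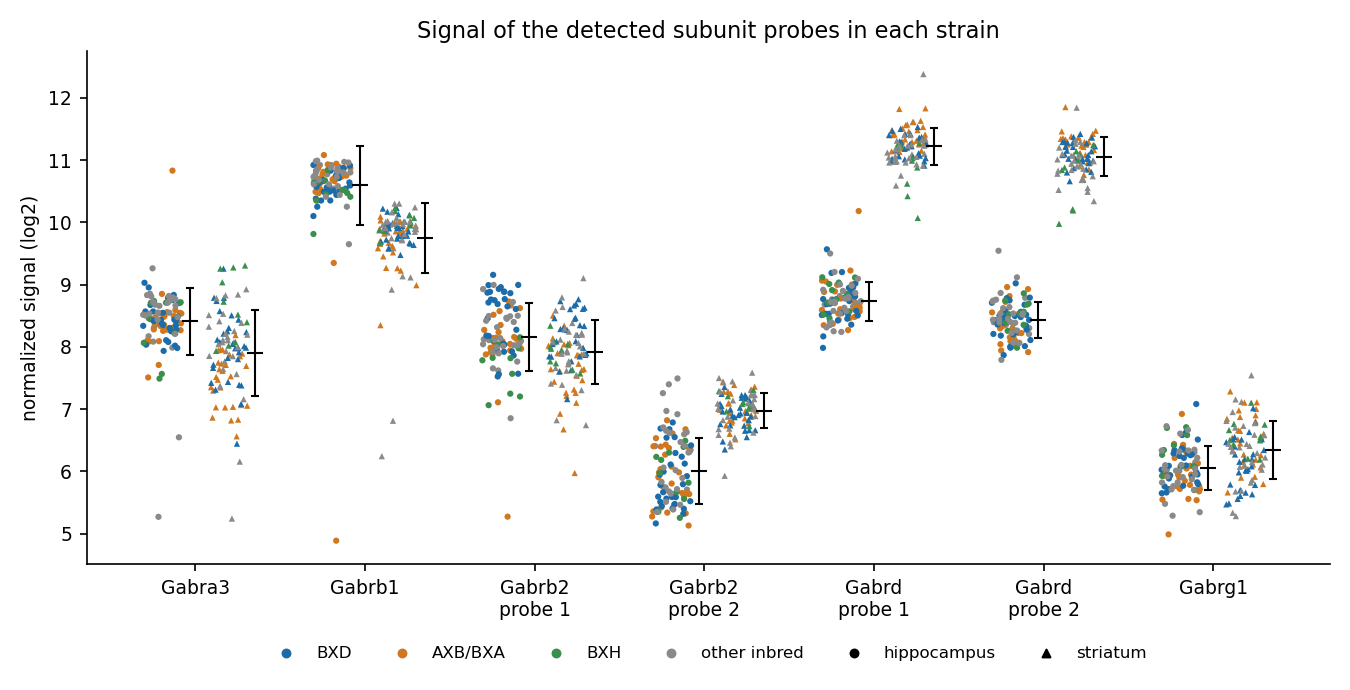
Normalized signal (log2, y axis) of the 7 detected probes in each strain (points, coloured by strain set; circles hippocampus, triangles striatum), with the mean and SD over strains beside each column. The Gabrd probes form separate clouds in the tissues, whereas those of Gabra3, Gabrb2 probe 1 and Gabrg1 overlap. Single arrays lie far below the rest. These include NZB in both tissues for Gabra3, and AXB19b in hippocampus and SM and NZW in striatum for Gabrb1.

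The first comparison asked how subunit levels differed between the tissues. The delta subunit was the member with the largest difference, about 6-fold higher in striatum. Gabrb1 and Gabra3 were lower in striatum, Gabrg1 was slightly higher there, and the probes of Gabrb2 gave opposite directions. All 7 detected probes differed at an adjusted p under 0.05 (limma, Benjamini-Hochberg over 12775 probes), but so did 75.3% of all probes tested, and the sizes are therefore more informative than the calls. At least 2-fold higher in striatum were 3.52% of all probes, among them both Gabrd probes, and at least 2-fold higher in hippocampus were 3.9%, with no member among them.

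Gabrd probe 1 ranged in hippocampus from 7.98 (BXD32) through a median of 8.72 to 10.18 (AXB19b), and in striatum from 10.07 (BXH22) through 11.24 to 12.38 (SM). The means were 8.73 ± 0.31 (SD, n = 99) and 11.22 ± 0.29 (SD, n = 97), a difference of 2.48 (95% interval 2.40 to 2.57, 5.60-fold, adjusted p = 7.67e-123, limma). Apart from the AXB19b array in hippocampus, no hippocampus value reached the lowest striatum value, and the signal was higher in striatum in 96 of 96 strains. Gabrd probe 2 rose from 8.43 ± 0.30 to 11.06 ± 0.31, a difference of 2.63 (2.54 to 2.71, 6.17-fold, adjusted p = 1.15e-126), again in 96 of 96 strains. These differences ranked 59 and 53 among the 12775 probes ordered from the highest in striatum downward.

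Gabrb1, a beta subunit found in neurons and astrocytes, ranged from 4.89 (AXB19b) through 10.68 to 11.08 (AXB2) in hippocampus and from 6.24 (SM) through 9.89 to 10.30 (CBA) in striatum. It was 1.79-fold lower in striatum, with a difference of -0.84 (-1.01 to -0.67, adjusted p = 4.08e-18, limma) and the same direction in 94 of 96 strains. The exceptions included AXB19b, where the Gabrb1 probe was not detected in hippocampus. Without the 4 arrays the difference was -0.82 with an SE of 0.04 in place of 0.09.

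Gabra3, an alpha subunit known from cortex and from monoaminergic neurons, ranged from 5.27 (NZB) through 8.45 to 10.83 (AXB19b) in hippocampus and from 5.24 (NZB) through 7.95 to 9.31 (BXH22) in striatum. The ranges overlapped, and the mean was 1.42-fold lower in striatum (-0.51, -0.68 to -0.34, adjusted p = 6.34e-08, limma), with 78 of 96 strains in this direction. In the 10 BXH strains the mean difference within strains had the other sign, 0.29 ± 0.65 (SD), against -0.96 ± 0.78 in the 28 AXB/BXA strains. These are the sets with the highest and the lowest mean of the cortical-type markers in striatum, 10.001 ± 0.78 and 8.64 ± 0.84, and the part of these markers in the result was not tested.

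Gabrb2, the beta subunit of the most common synaptic receptors, was 1.18-fold lower in striatum by probe 1 (8.16 ± 0.55 against 7.92 ± 0.51, difference -0.24, -0.39 to -0.09, adjusted p = 0.0024, limma). By probe 2, which was detected on only 35 of 100 hippocampus arrays, it was higher in striatum (6.01 ± 0.53 against 6.98 ± 0.28, difference 0.97, 0.85 to 1.09, adjusted p = 2.02e-36), and no fold is given for this probe. The direction held in 64 of 96 strains for probe 1 and in 94 of 96 for probe 2. The probes barely correlated across strains, with r = 0.01 in hippocampus and 0.15 in striatum, whereas the Gabrd probes correlated with r = 0.54 and 0.86. No direction is therefore given for the Gabrb2 gene. Without background correction the difference of probe 2 was 0.40. Gabrg1, known from astrocytes and from amygdala and other limbic regions, was higher in striatum (6.06 ± 0.35 against 6.34 ± 0.47, difference 0.29, 0.17 to 0.40, adjusted p = 3.83e-06, limma), in 68 of 96 strains, and its mean difference in the BXD strains was 0.02 ± 0.43. Without background correction its difference was 0.12, and that of Gabra3 -0.34.

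**Figure D2:**
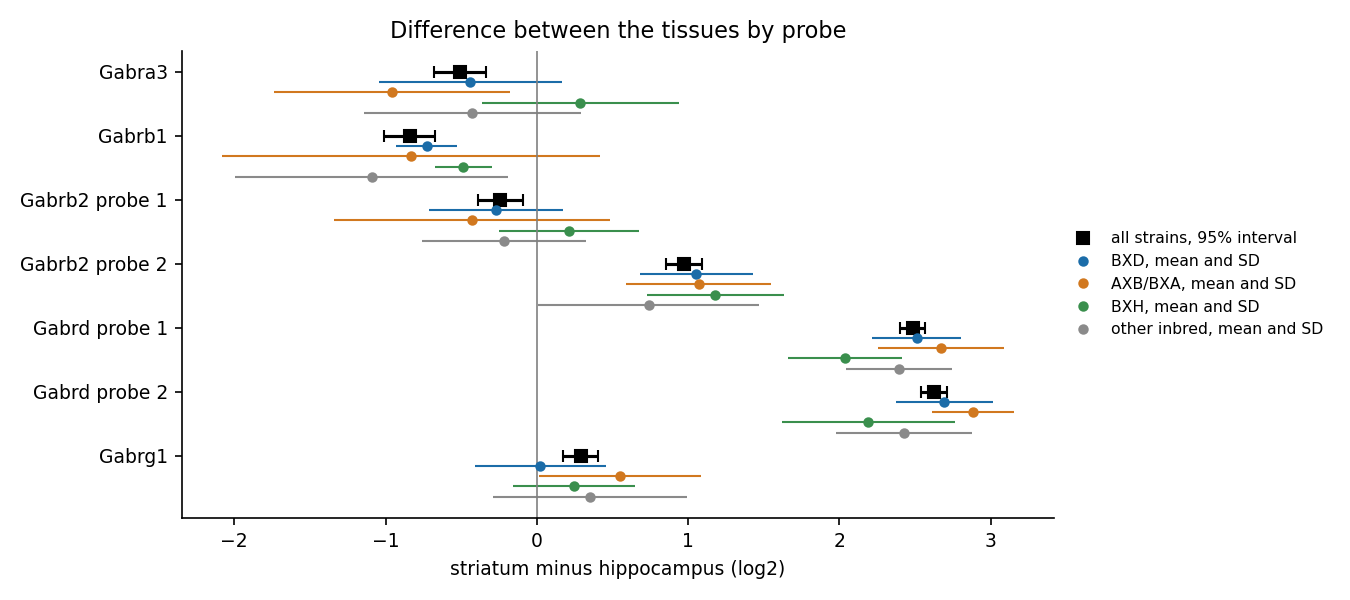
Striatum minus hippocampus (log2, x axis) for each detected probe (rows): black squares give the fit over all strains with its 95% interval, and coloured points the mean and SD of the within-strain differences in each strain set. Both Gabrd probes lie above 2 in every set, the Gabrb2 probes lie on either side of 0, and the set means of Gabra3 and Gabrb2 probe 1 are above 0 only in the BXH strains.

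Other genes of GABA signalling were read from fixed lists on the same scale. Of 7 tested genes of GABA synthesis, transport and breakdown, 4 were higher in striatum and 3 in hippocampus at an adjusted p under 0.05 (limma), with a median difference of 0.46. The vesicular GABA transporter Slc32a1 (1.37, SE 0.04) and the GABA transaminase Abat (0.63, SE 0.03) were highest in striatum, and the transporters Slc6a12 (-1.90, SE 0.08) and Slc6a13 (-1.69, SE 0.09), known from meninges and vessels, were highest in hippocampus, although Slc6a12 was detected on only 3 of 98 striatum arrays. Of 13 genes of receptor clustering and trafficking, 4 were higher in striatum, 4 in hippocampus and 5 did not pass, with a median of -0.01. Plcl2, which binds the receptor's beta subunits and phosphatases (0.98, SE 0.03), and Clptm1, which holds subunits in the endoplasmic reticulum (0.31, SE 0.06), led in striatum, and Nsf, the ATPase of membrane fusion (-0.57, SE 0.04), and Hap1, which links receptors to kinesin (-0.40, SE 0.08), led in hippocampus. The scaffold gephyrin (Gphn) differed by 0.18 (SE 0.03). Among 7 genes of chloride transport 3 were higher in striatum, led by the potassium-chloride exporter Slc12a5 (0.98, SE 0.07) and the chloride importer Slc12a2 (0.59, SE 0.04), and 2 in hippocampus, Car7 (-0.45, SE 0.05) and Oxsr1 (-0.10, SE 0.04). Of 2 tested GABA-B receptor genes only the auxiliary subunit Kctd12 passed (-0.42, SE 0.09). No gene of the clustering, chloride or GABA-B lists reached 2-fold. Over all 12775 probes, 3.52% were at least 2-fold higher in striatum and 3.9% in hippocampus, and the median difference was 0.01. At an adjusted p under 0.05 (limma), 4934 of all probes were higher in striatum and 4688 in hippocampus. The counts per list are to be read beside these.

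Without the 4 arrays, Gabra3 had the largest SD over strains among the probes detected on nearly all arrays of both tissues. With all arrays its SD in hippocampus was 0.53, below those of Gabrb1 (0.63) and Gabrb2 probe 1 (0.54). The first rank of Gabra3 did not hold within each strain set in hippocampus. There its SD without the 4 arrays was 0.73 in the other inbred strains, which hold NZB and C3H, and 0.46 in BXH. In BXD and AXB/BXA it was 0.28 and 0.27, against 0.48 and 0.32 for Gabrb2 probe 1. Over all sets the SD of Gabra3 without the 4 arrays was 0.48 in hippocampus and 0.68 in striatum. These were larger than the SD of 87.5% and 94.4% of the probes detected in both tissues. Gabrb2 probe 1 followed, with 0.46 and 0.50 (85.8% and 85.97%), and of the probes near background in hippocampus Gabrb2 probe 2 had 0.52 and 0.27 (90.8% and 40.1%) and Gabrg1 0.33 and 0.47 (63.3% and 82.9%). Gabrd was near the middle of all probes, with 0.27 and 0.26 for probe 1 (42.9% and 36.7%) and 0.29 and 0.30 for probe 2 (49.2% and 46.4%). Gabrb1 had 0.27 and 0.31 (44.7% and 50.4%), although its SD over all strains was 0.63 and 0.57.

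The lowest Gabra3 values came from the same strain in both tissues. NZB had 5.27 in hippocampus and 5.24 in striatum, against medians of 8.45 and 7.95, and its arrays were the only hippocampus array and, with NZW, the only striatum arrays on which the Gabra3 probe was not detected (detection p 0.0977 and 0.134 for NZB, 0.0338 for NZW). NZB was not low in the other subunits, with Gabrb2 probe 1 at 8.99 in hippocampus and 8.79 in striatum, among the 3 highest values of each tissue. C3H was low for Gabra3 in hippocampus (6.55) and not in striatum (8.53). On the same hippocampus array Gabrb2 probe 1 was 6.85 and Gabrd probe 2 was the highest of all strains at 9.54. The medium spiny neuron markers had their highest hippocampal mean there, 9.48 against a median of 8.45. BXD32 had a high mean of these markers too, 9.34 with hippocampus normalized on its own, but low Gabrd. Its Gabrd probe 1 was the lowest hippocampal value, 7.98, and its probe 2 was among the 3 lowest, 7.87. The part of the dissection in the C3H and BXD32 values was not tested. Whether an allele in the probe sequence takes part in the NZB values was not tested.

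Because these values differ from strain to strain, the promoter of Gabra3 in the reference strain is shown. RefSeq places 2 starts of Gabra3 on the minus strand of the X chromosome, and the 250 bases before the upstream start, chrX:72656920-72657169 in GRCm38.p6, read from 5′ to 3′ on the gene's strand with the only TATA-type match in capitals:
Gabra3: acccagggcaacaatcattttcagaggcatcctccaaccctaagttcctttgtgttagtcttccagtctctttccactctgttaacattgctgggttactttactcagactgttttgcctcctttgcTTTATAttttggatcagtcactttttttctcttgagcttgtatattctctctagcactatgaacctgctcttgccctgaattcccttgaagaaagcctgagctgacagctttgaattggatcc
The capitals are the reverse complement of TATAAA and begin 123 bases before that start. This motif, searched on both strands, is found in 12.4% of the 32851 promoter windows of this length. The window holds 0 CpG and 42.4% G and C, and neither the GC box GGGCGG (32.7% of windows), nor CACGTG (6.02%), nor TGACGTCA (1.55%). The window of the downstream start, chrX:72656808-72657057, overlaps it, also holds 0 CpG and includes the same TATA-type match. The windows of the other members with an entry hold from 1 CpG (Gabrg1, 35.6% G and C) to 18 (the upstream start of Gabrb1, 64.4% G and C), and a window of Gabrb2 holds a TATA-type match as well. A match is a description of the letters only, and Gabrd had no entry among these sequences.

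The second comparison asked whether strains kept their rank between the tissues. At an adjusted p under 0.05 over 11746 probes, 42.9% of all probes correlated between the tissues across 96 strains, and 2 of the 7 member probes did, a count that says nothing particular about the members. Gabrb2 probe 1 had r = 0.25 (permutation p = 0.0161, adjusted p = 0.0361 over all probes) and Spearman's rho = 0.36 (permutation p = 0.00048). Adjusted over the 7 member probes, the permutation p was 0.0859 for r, which did not pass, and 0.00336 for rho. Without AXB19b and C3H the r of Gabrb2 probe 1 was 0.31. In the 30 BXD strains r was 0.53, and in the 28 AXB/BXA strains -0.25. BXD strains covered 7.52 (BXD24a) to 9.16 (BXD13) in hippocampus and 7.16 (BXD38) to 8.76 (BXD36) in striatum, around parents of 8.08 (B6) and 8.50 (DBA) in hippocampus and 7.96 and 8.64 in striatum. Gabrb2 probe 2 had r = 0.16 (permutation p = 0.127) and rho = 0.31 (permutation p = 0.0018), and r = 0.39 without SWR and SM, and it passed over all probes by rho (adjusted p = 0.00524) and without the strains AXB19b, SM, NZW and KK (r = 0.23, adjusted p = 0.0458).

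For Gabra3, r was 0.24 (permutation p = 0.0245, adjusted p = 0.0492 over all probes) and rho 0.23 (permutation p = 0.0225). Adjusted over the member probes, these permutation p-values were 0.0859 and 0.0524, and neither passed. The correlation of Gabra3 rested on single strains: r was 0.10 without NZB and AXB19b, and 0.0033 without NZB alone. It was 0.35 without AXB19b, SM, NZW and KK (adjusted p = 0.0019). For Gabrb1, r was 0.02 (permutation p = 0.763) and rho 0.19 (permutation p = 0.0587), and leaving out the same 4 strains gave r = 0.28 (adjusted p = 0.0155). CAST was low for Gabrb1 in both tissues, at 9.65 in hippocampus and 8.92 in striatum. The Gabrd probes had r = 0.14 and -0.04 and Gabrg1 0.06, with permutation p of 0.175, 0.735 and 0.555.

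**Figure D3:**
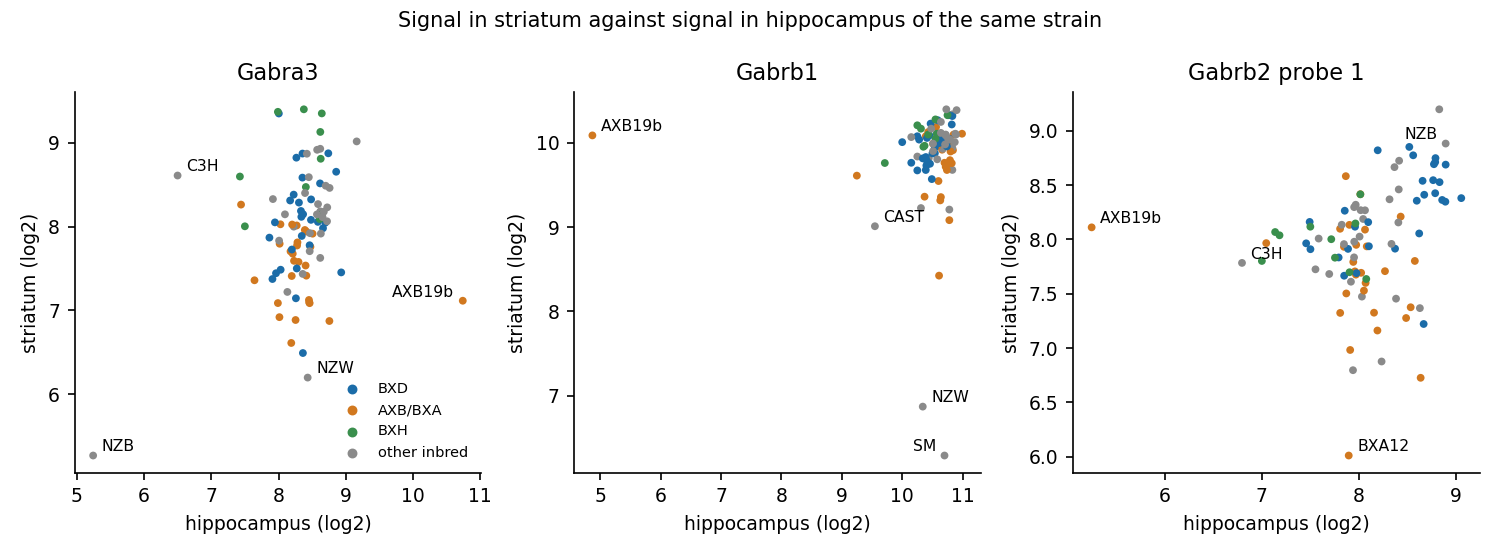
Signal in striatum (log2, y axis) against signal in hippocampus (log2, x axis) of the 96 strains with both arrays, each tissue normalized on its own, for Gabra3, Gabrb1 and Gabrb2 probe 1 (points coloured by strain set). NZB lies apart in both tissues for Gabra3, AXB19b, SM and NZW lie apart in a single tissue for Gabrb1, and the BXD points of Gabrb2 extend along the diagonal.

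The third question was whether the strain sets differed. With a limma F test over the 4 sets, 18.5% of all probes passed an adjusted p of 0.05 in hippocampus and 49.5% did in striatum. Of the 7 member probes 1 differed in hippocampus and 5 in striatum, and more calls in striatum were thus seen over all probes too. Gabrb2 probe 1 differed in both tissues (adjusted p = 0.00276 and 0.000507): relative to the other inbred strains the mean of the BXD set was higher by 0.30 in hippocampus and 0.25 in striatum, that of BXH differed by -0.44 and -0.04, and that of AXB/BXA by -0.13 and -0.35. Gabra3 differed in striatum (adjusted p = 3.49e-05), with AXB/BXA at -0.53 and BXH at 0.69 relative to the other inbred strains, and not in hippocampus (adjusted p = 0.99). Gabrd ran the other way in striatum (adjusted p = 5.59e-05 and 2.64e-05 by probe), with AXB/BXA at 0.24 and 0.30 and BXH at -0.25 and -0.21. Gabrg1 differed in striatum as well (adjusted p = 0.0244), with BXD lowest at -0.21. Gabrb1 did not pass with all strains (adjusted p = 0.211 in striatum) and did without SM, NZW and KK (adjusted p = 0.0152). The medium spiny neuron markers had their lowest mean level in striatum in BXH, 12.27 ± 0.54, and their highest in AXB/BXA, 12.80 ± 0.12, and the part of the dissection in these set differences was not tested.

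The last comparison asked whether subunits varied together across strains. Correlations were computed between the main probes of all 21 pairs of members in each tissue, 42 in all, and 10 pairs per tissue had both genes detected. After Benjamini-Hochberg adjustment over the 42 permutation p-values, 3 of 10 pairs passed in hippocampus and 6 of 10 in striatum. Of all other probes, between 6.79% (for Gabrg1) and 76.3% (for Gabrb1) correlated with a detected member in hippocampus at an adjusted p under 0.05. In striatum these shares were 7.88% and 62%, and the counts say nothing particular about the subunits. Of the pairs known to assemble, those with Gabra4 could not be measured, and Gabrb2 with Gabrd was the remaining pair. Its genes did not rise together. They varied in opposite directions, with r = -0.51 in hippocampus (n = 99, permutation p = 2e-05, adjusted p = 0.00042) and -0.35 in striatum (n = 97, permutation p = 0.00057, adjusted p = 0.00299). Spearman's rho was -0.27 (permutation p = 0.00599, adjusted p = 0.0419) and -0.24 (permutation p = 0.0154, adjusted p = 0.0748), so that striatum did not pass by rho. Without the 2 strains farthest in Gabrb2, r was -0.28 in hippocampus (AXB19b and C3H) and -0.31 in striatum (BXA12 and BXA2), and without the 4 arrays -0.34 and -0.31. The sign was the same in all 4 strain sets of each tissue, between -0.082 and -0.77 in hippocampus and from -0.17 to -0.51 in striatum, but only that of AXB/BXA in hippocampus, the set that holds AXB19b, passed on its own (adjusted p = 0.0131). With Gabrd probe 2 in place of probe 1, r was -0.24 and -0.27 (adjusted p = 0.0757 and 0.0508), and with Gabrb2 probe 2 -0.20 and -0.32 (adjusted p = 0.158 and 0.00938). The difference between the tissues, 0.18, did not pass a permutation test that exchanged the tissues of a strain at random over 96 strains (p = 0.421). Its adjusted permutation p was 0.699 over the 3 pairs known to assemble, among them those with the undetected Gabra4. Over the 10 measured pairs it was 0.842.

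By their main probes and over all strains, the beta subunits varied in the same direction. Gabrb1 and Gabrb2 had r = 0.58 in hippocampus (permutation p = 5e-05, adjusted p = 0.00042) and 0.48 in striatum (permutation p = 3e-05, adjusted p = 0.00042), with rho of 0.17 (permutation p = 0.0925, adjusted p = 0.299) and 0.38 (permutation p = 9e-05, adjusted p = 0.00126). The hippocampal value rested largely on AXB19b, without which it was 0.26 (adjusted p = 0.0447), whereas striatum had 0.47 without SM, NZW and KK. With Gabrb2 probe 2 r was -0.07 and 0.01. By strain set, r in hippocampus was 0.93 in AXB/BXA, which holds AXB19b, 0.53 in BXH, 0.13 in BXD and 0.07 in other inbred strains. In striatum it was 0.84, 0.29, 0.05 and 0.52 in the same order. Only AXB/BXA passed on its own, in both tissues (permutation test, adjusted p = 0.00105 and 0.00042). Gabrb1 and Gabrd had r = -0.53 and -0.41 (permutation p = 5e-05 and 0.00036), which became -0.26 and -0.27 without the 4 arrays (adjusted p = 0.0447 in both tissues), and -0.05 and -0.16 with Gabrd probe 2. By rho they gave -0.30 (permutation p = 0.00279, adjusted p = 0.0293) and -0.24 (permutation p = 0.016, adjusted p = 0.0748), the latter not past the threshold. These shifts stand beside a wide co-variation on the same arrays. Gabrb1 correlated at an adjusted p under 0.05 with 76.3% of the other probes in hippocampus and 62% in striatum, Gabrb2 with 60.2% and 51.4%, Gabrd with 55.1% and 45.4%, Gabra3 with 42.2% and 39.1%, and Gabrg1 with 6.79% and 7.88%. Without the AXB19b array the hippocampal shares were 20.1% for Gabrb1, 9.22% for Gabrb2, 7.69% for Gabrd, 6.86% for Gabra3 and 0% for Gabrg1. The striatal shares without SM, NZW and KK stayed wide for most members. They were 39.96% for Gabrb1, 42.4% for Gabrb2, 34.3% for Gabrd, 42.8% for Gabra3 and 9.60% for Gabrg1.

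**Figure D4:**
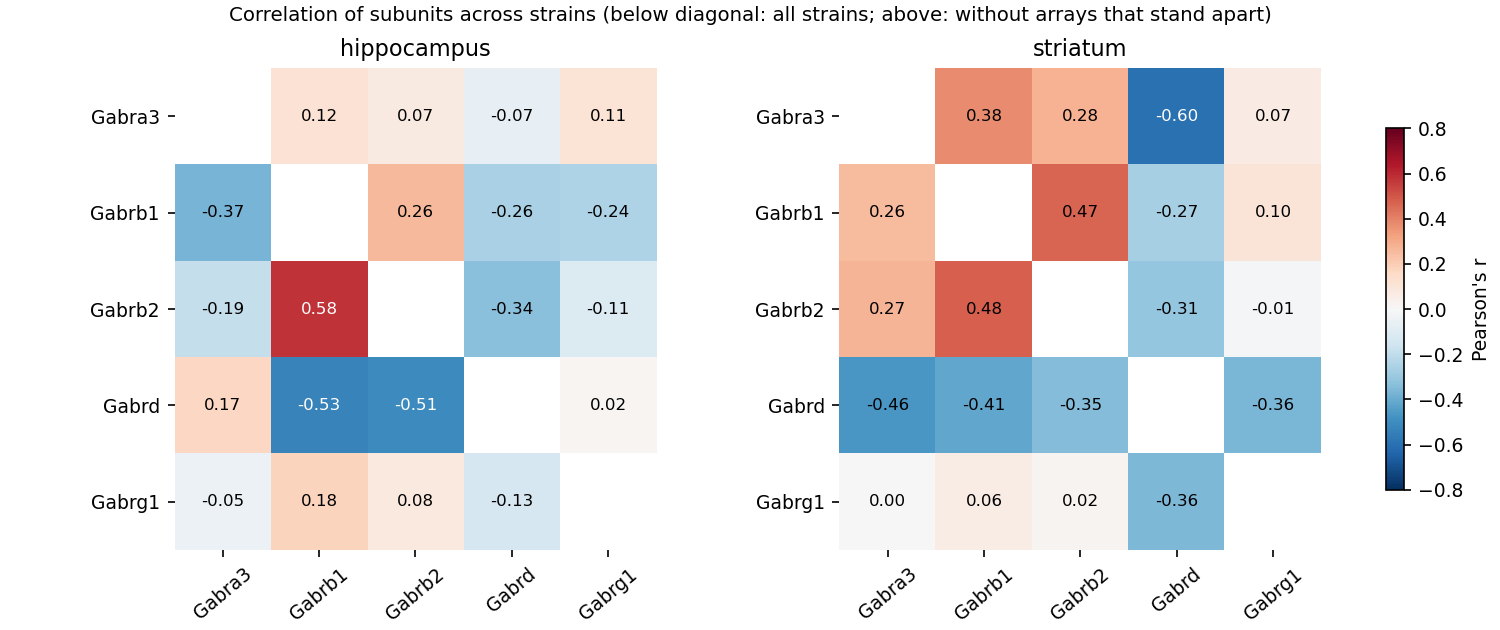
Pearson's r across strains (colour and number) between the main probes of the 5 detected subunits, hippocampus left and striatum right. Values below the diagonal use all strains and values above it leave out AXB19b (hippocampus) or SM, NZW and KK (striatum). Gabrb2 with Gabrd is negative in all 4 values, and Gabra3 with Gabrd is -0.46 and -0.60 in striatum against 0.17 and -0.07 in hippocampus.

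Gabra3 and Gabrd gave the pair with the largest rho in size in striatum. There r was -0.46 (permutation p = 2e-05, adjusted p = 0.00042), rho was -0.58 (permutation p = 1e-05, the smallest that 100000 permutations can give), and r was -0.55 without NZB and NZW and -0.60 without SM, NZW and KK. In hippocampus r was 0.17 (permutation p = 0.094, rho = 0.07), and -0.07 without AXB19b. The difference of r between the tissues was -0.64 over 96 strains and did not pass when adjusted over the 10 measured pairs (permutation p = 0.00976, adjusted p = 0.0976), whereas without the strains AXB19b, SM, NZW and KK it was -0.54 (permutation p = 0.00032, adjusted p = 0.0032). The pair was singled out after its values were seen. By strain set, r in striatum was -0.73 in BXD, -0.42 in AXB/BXA, -0.83 in BXH and 0.08 in the other inbred strains. Over all striatum arrays Gabrd correlated with the mean of the 7 medium spiny neuron markers at r = 0.54, with that of 4 cortical-type markers at -0.58 and with that of 5 interneuron markers at -0.68, and without those 3 arrays at 0.85, -0.64 and -0.78. Gabra3 had -0.29, 0.57 and 0.57 over all striatum arrays, and -0.67, 0.68 and 0.67 without the 3. Both subunits thus moved with these markers in striatum, in opposite directions. The KK striatum array, left out among the 3 and lowest in the medium spiny mean, kept Gabrd at 10.91 (probe 1) and 10.68 (probe 2). The Gabrd medians of these probes were 11.24 and 11.08 in striatum, and 8.72 and 8.43 in hippocampus. In hippocampus the correlations with the medium spiny and cortical-type markers were 0.26 and 0.04 for Gabrd and -0.08 and -0.36 for Gabra3. Without AXB19b they were 0.27 and 0.38 for Gabrd and -0.11 and -0.16 for Gabra3. The partial correlation of Gabra3 with Gabrd in striatum, given the medium spiny and cortical-type means but not the interneuron mean, was -0.24 over 97 strains (adjusted p = 0.0673) and -0.035 without SM, NZW and KK (adjusted p = 0.863). Gabrb2 with Gabrd had -0.48 in hippocampus and -0.45 in striatum under the same adjustment over all strains (adjusted p = 0.00014 and 0.00049), and -0.25 and -0.34 without the 4 arrays (adjusted p = 0.102 and 0.0221).

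**Figure D5:**
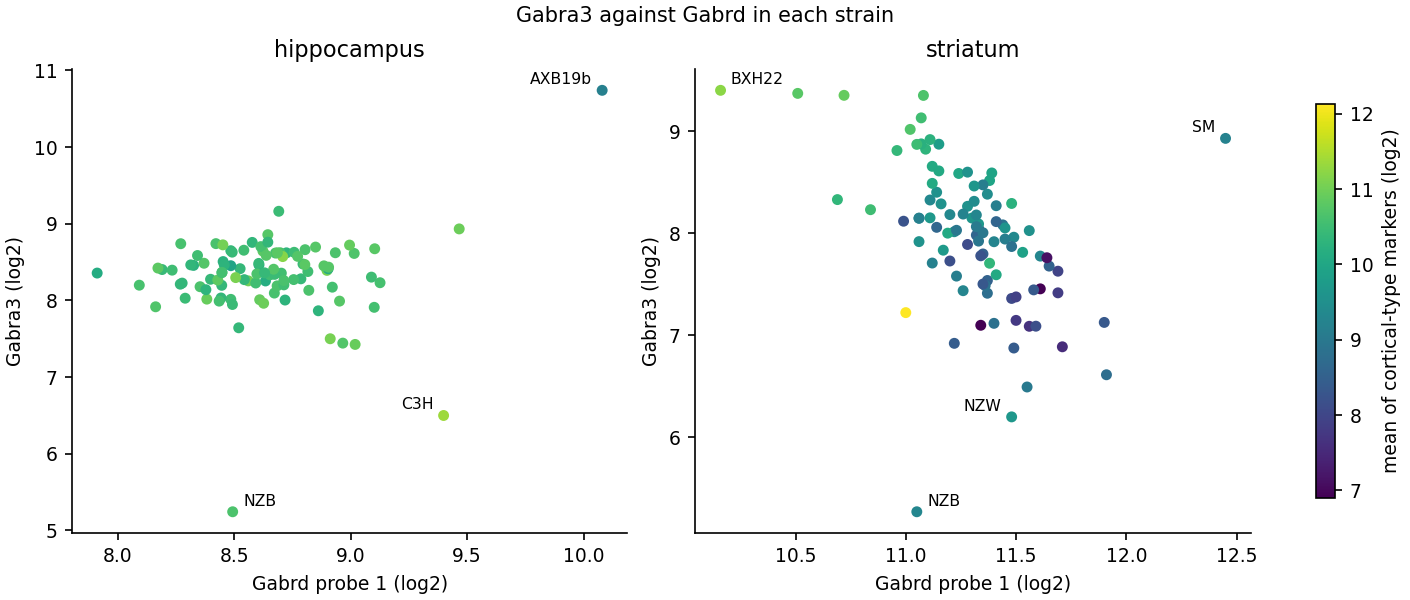
Gabra3 (log2, y axis) against Gabrd probe 1 (log2, x axis) in each strain, hippocampus left and striatum right, with each tissue normalized on its own; the colour gives the mean of 4 cortical-type glutamatergic markers on that array (log2). In striatum Gabra3 falls as Gabrd rises (r = -0.46) and correlates with the cortical-type markers (r = 0.57), although KK, with the highest markers, lies below the median of Gabra3; in hippocampus r of the subunits is 0.17.

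Gabra3 correlated in striatum also with Gabrb2 (r = 0.27, permutation p = 0.0067, adjusted p = 0.0313, rho = 0.27), and Gabrg1 with Gabrd (r = -0.36, permutation p = 0.00028, adjusted p = 0.00196, rho = -0.28). The latter did not pass with the authors' processed values (r = -0.21, adjusted p = 0.0531). Gabra3 with Gabrb1 had r = 0.26 (permutation p = 0.0162, adjusted p = 0.0566), and 0.38 without SM, NZW and KK (adjusted p = 0.00399), and in hippocampus -0.37 (adjusted p = 0.0595) and 0.12 without AXB19b. Gabrb1 and Gabrg1, which share a cluster on chromosome 5 with Gabra4 and Gabra2, had r = 0.06 in striatum (permutation p = 0.57) and 0.18 in hippocampus (permutation p = 0.082), the latter -0.24 without AXB19b.

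Over all strains, no gene was among the 3 nearest by Pearson's r in both tissues for any detected member. Across 97 strains in striatum, Gabrd was closest to Cyp2s1 (r = 0.80), Actn2 (0.77) and Foxp1 (0.75), the last a transcription factor of medium spiny neurons, and without the 3 arrays to Actn2 (0.86), the phosphodiesterase Pde10a (0.82) and Drd2 (0.82). Across 99 strains in hippocampus it was closest to both probes of Lrrc75a (0.69 and 0.68) and to Fxyd7 (0.64), a regulator of the sodium pump. Gabra3 was closest to Fbxw7 (0.75), Efr3a (0.73) and Tspan17 (0.72) in striatum and to Akap8l (0.73), Zfp385b (0.58) and Snx11 (0.57) in hippocampus, and without the 4 arrays to Efr3a (0.82), Lancl2 (0.81) and Fbxw7 (0.81) and to Akap8l (0.66), Rasgrp1 (0.60) and Rcl1 (0.50). Gabrb2 was closest to Tcp1 (0.76), Opa1 (0.75) and Adss (0.75) in striatum and to the calcium pump Atp2b1 (0.70), Ublcp1 (0.70) and Sh3gl2 (0.69) in hippocampus, and without the 4 arrays the highest were Glud1 (0.78) and Ublcp1 (0.57). Gabrb1 had its highest values with Bmerb1 (0.92), Jkamp (0.92) and Ssbp2 (0.91) in striatum and with Eif4a2 (0.94), Vps35 (0.93) and Ppm1a (0.93) in hippocampus, and without the 4 arrays its highest r was 0.75 (Atp6v0d1) and 0.67 (Dnm1l). Gabrg1 reached only 0.62 with Tmx4, 0.60 with the neuropeptide Y receptor Npy2r and 0.58 with Sacm1l in striatum, and 0.45 with Pus1, 0.44 with Hpcal1 and 0.42 with Olfm2 in hippocampus. Without the 4 arrays its highest were Tmem255a (0.63) and Ccs (0.43), and that of Gabrd in hippocampus was again Lrrc75a (0.59).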

How the data were processed

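Total RNA of whole hippocampus and striatum was measured on Illumina MouseRef-8 v2 arrays. The authors normalized signals with the rank invariant option of BeadStudio and deposited for every array its signal intensity and detection p-value at each probe. Both deposited tables are named as not normalized. Of the deposited hippocampus intensities 100% equal the authors' processed series values (relative tolerance 1e-05), and of those of striatum 0.00822%; whether the latter had been scaled in another way was not tested. Arrays have no read depth, and what limits precision is how many there are and how far a probe lies above background.

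Background was corrected with limma 3.58.1 in R 4.3.3 (nec, offset 16, from signal and detection p), followed by quantile normalization and log2, jointly for levels and the tissue difference and within each tissue for strain sets and correlations. Probes were kept when detected (p under 0.01) in at least 20% of the arrays of either tissue (12775) or of each tissue (11746). Of 25697 probes, 23978 had 1 gene symbol, 0 several and 1719 none. Tissues and strain sets were compared with lmFit and eBayes, and 95% intervals are 1.96 SE on either side. Correlations were computed in Python 3.11.15 with numpy 2.4.6 and scipy 1.17.1, with 100000 permutations, two-sided; these treat related strains as exchangeable. Same-named strains pair the tissues: their deviations over probes correlated with a median r of 0.48, over 0.1 in 93 of 96 strains. X129X1 (striatum) was not joined to 129X1 (hippocampus). The limma fits and the correlations with their permutation p were tested on simulated data, and the other steps were not.

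Named were all member probes, the probe with the higher mean as the main one, the 3 most correlated probes of other genes per member and tissue, and from each list up to 2 genes per direction; Gphn, CAST and the strains singled out were added once their values were known. The members and lists were chosen with earlier results of these data known. Alternatives were no background correction, median centring, the authors' values, no filter, rho, strain as a replicate block, other arrays, strains or probes, and partial correlation. Promoter sequences and gene names are those of RefSeq (GRCm38.p6), and the sequence table had entries for 6 of the 7 genes.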

Additional observations from a re-analysis of the deposited data

How the results depend on the processing

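With strain as a replicate block over 96 strains, the paired fit changed no call of the tissue difference and gave -0.51 for Gabra3, -0.84 for Gabrb1, -0.25 for Gabrb2 probe 1, 2.48 for Gabrd probe 1 and 0.29 for Gabrg1. The 7 tissue differences kept direction and call under the other planned settings (Gabrd probe 1 from 2.11 to 2.56). Within the BXH strains those of Gabra3 and Gabrb2 probe 1 had the other sign, 0.29 and 0.21, and those of Gabrb1 (-0.49) and Gabrd probe 1 (2.04) were smaller by over 1 SD of that set. Over all probes, those at least 2-fold higher in striatum and in hippocampus numbered 226 and 237 without background correction and 199 and 240 with the authors' values, against 450 and 498.

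The correlation of Gabra3 between tissues did not pass without background correction (0.14, adjusted p = 0.287), with the authors' values (0.10), with no filter (0.24, adjusted p = 0.0869) and without NZB (0.0033), nor within BXD (0.16) or BXH (0.21), and was -0.27 within AXB/BXA. That of Gabrb2 probe 1 did not pass with no filter (0.25, adjusted p = 0.0648) and without NZB (0.23), nor within BXH (0.0012) or the other inbred strains (0.38), and was -0.25 within AXB/BXA. That of Gabrb1 passed without AXB19b, SM, NZW and KK (0.28) and within BXD (0.48), and that of Gabrb2 probe 2 with the authors' values (0.29), by rho (0.31), without the 4 strains (0.23) and within BXD (0.60).

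Gabrb2 with Gabrd in hippocampus did not pass within BXD (-0.36), BXH (-0.082) or the other inbred strains (-0.37), with the second probe of Gabrb2 (-0.20) or of Gabrd (-0.24), by rho without AXB19b (-0.25), or as a partial correlation without AXB19b (-0.25). In striatum it did not pass by rho (-0.24, with or without the 3 arrays: adjusted p = 0.0748 and 0.0988), within BXD (-0.17), AXB/BXA (-0.37), BXH (-0.51) or the other inbred strains (-0.34), or with the second probe of Gabrd (-0.27). Hippocampus had 6 called pairs with the authors' values and 0 without AXB19b by rho or as partial correlations, against 3, and striatum 3 partial correlations without the 3 arrays, against 6. Gabrb1 with Gabrd in striatum by rho (-0.24) and Gabrd with Gabrg1 in striatum with the authors' values (-0.21) did not pass. The difference of r between the tissues for Gabra3 with Gabrd passed only without the 4 strains (-0.54, adjusted p = 0.0032). Other signs turned for Gabrb1 with Gabrd in hippocampus within BXH (0.024), in striatum within the other inbred strains for Gabra3 with Gabrb2 (-0.065) and with Gabrd (0.082), and with the second probe of Gabrb2 for Gabrb1 with Gabrb2 in hippocampus (-0.070) and Gabra3 with Gabrb2 in striatum (-0.0095). The strain sets hold 10 to 30 strains, and the cause of the other changes was not tested. Settings with NZB left out, within sets for tissue differences and correlations between tissues, second probes, all pairs tested for a difference between tissues, and rho and partial correlations without arrays were added after seeing the data. The slide as a block was not run, since the files name no slide. Low signal limits Gabrg1 and Gabrb2 probe 2, each detected on 35 of 100 hippocampus arrays.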
